A study of Mus musculus with 8 samples.

Results

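The 10 genes by which macrophages take up, store and export lipid, Abca1, Abcg1, Plin2, Cd36, Msr1, Apoe, Lpl, Nr1h2, Nr1h3 and Npc2, were examined in RAW264.7 cells, a mouse macrophage line transformed by a leukaemia virus. The genes were taken from a list of macrophage lipid handling genes and found by symbol among 55335 gene identifiers, and all 10 were present. RNA was sequenced from cells kept for 3 days with TABS (the Trio-Active bone scaffold, 4 libraries) or with HA/Mg (a hydroxyapatite scaffold doped with magnesium, 4 libraries). All 8 libraries came from the same line, a culture without a scaffold was not analysed here, and the composition of TABS beyond its name is not stated in the labels. Libraries are named by the replicate numbers 5 to 8 of their titles. Nothing in the labels says whether the replicates were separate cultures, so p-values measure only how far these libraries spread, which could be technical. The libraries of the TABS group carry the letter H and those of the HA/Mg group the letter L. If the letters and titles were exchanged, every direction below would reverse, and this was not tested. On the first principal component (40.2% of the variance) HA/Mg replicate 6 stood at -2.62, nearer to the TABS libraries (-16.5 to -5.72) than to the other HA/Mg libraries (12.7 to 16.4). The values of the 6 tested genes and of the 4 ratios without it are given beside the main values.

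Macrophages take up modified lipoproteins through scavenger receptors such as MSR1 and CD36, and the secreted enzyme lipoprotein lipase frees fatty acids from lipoprotein triglyceride outside the cell. Lipoprotein cholesterol esters are hydrolysed in lysosomes, and NPC2 and NPC1 then pass the free cholesterol out of the lysosome. Surplus lipid is kept in droplets coated by perilipin 2, or leaves the cell through the transporters ABCA1 and ABCG1 to apolipoproteins and HDL. The liver X receptors, LXRalpha (Nr1h3) and LXRbeta (Nr1h2), sense oxysterols, bind DNA with RXR partners and raise Abca1, Abcg1, Apoe and other targets. RAW264.7 cells are known for making little apolipoprotein E of their own and little ABCA1 unless they are stimulated.

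Of the 10 genes 6 reached the minimum of 1 FPKM (fragments scaled to transcript length and library total) in at least 4 libraries and were tested, and 4 (Abca1, Nr1h3, Cd36 and Apoe) were under 1 FPKM in all 8 libraries and were not. Only Npc2 passed the test, at a 1.21-fold higher level with TABS, and no tested gene of the 10 was called lower. Across all 10161 genes tested with limma on log2(FPKM + 1), 18.1% were called at an adjusted p under 0.05: 5.07% (515 genes) were higher with TABS and 13.1% (1327) were lower. That split moved with the scaling of the libraries, to 806 higher and 1050 lower with median-of-ratios scaling, 806 and 1192 with quantile normalization, and 251 and 1549 with libraries scaled to equal sums. The 1 called gene of 6, or 16.7%, is near the background of 18.1%. All 6 tested genes had a positive log2 change, against 42.3% of all tested genes, and their median change was 0.15, against -0.04 over all genes. Most of these signs were unsettled. Confidence intervals held both signs for Plin2 (-0.09 to 0.19), Abcg1 (-0.05 to 0.26), Lpl (-0.02 to 0.41) and Nr1h2 (-0.38 to 0.42). They were positive throughout only for Npc2 (0.14 to 0.40) and Msr1 (0.05 to 0.34). Nr1h2 was at 0.02 ± 0.18 (standard error), and was negative in 7 of 22 alternative analyses. Its mean FPKM was lower with TABS (10.5 against 10.7). Under median-of-ratios scaling 2 of the 6 were called, with Msr1 added (0.25, adjusted p = 0.0437). The counts leave out the 4 weakly detected genes.

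The promoters of 3 genes are shown. Npc2 was the called gene, Abca1 is a classical LXR target that was weakly detected here, and Plin2 is the droplet coat gene. The RefSeq promoter table (build GRCm38.p6) held entries for 7 of the 10 genes, and Lpl, Msr1 and Abcg1 had no entry. Letters in capitals mark matches, on either strand, to 5 motifs: the LXR-type element (GGTCA or GGTTA, a gap of 5 bases, then GGTCA or GGTTA), the nuclear receptor site AGGTCA, the E-box CACGTG, the GC box GGGCGG and the TATA box TATAAA. The stretch shown is the part before the start of the gene.
Npc2, chr12:84773153-84773362, minus strand: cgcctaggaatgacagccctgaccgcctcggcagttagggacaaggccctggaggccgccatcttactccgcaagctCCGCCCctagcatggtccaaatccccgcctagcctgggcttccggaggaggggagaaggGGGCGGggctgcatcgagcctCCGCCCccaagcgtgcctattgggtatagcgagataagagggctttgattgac
Abca1, chr4:53159896-53160145, minus strand: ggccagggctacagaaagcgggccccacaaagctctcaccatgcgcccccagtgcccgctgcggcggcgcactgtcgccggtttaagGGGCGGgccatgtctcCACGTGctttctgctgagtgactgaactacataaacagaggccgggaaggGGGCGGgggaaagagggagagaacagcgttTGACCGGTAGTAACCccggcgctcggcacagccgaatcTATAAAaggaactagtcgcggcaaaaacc
Plin2, chr4:86670061-86670309, minus strand: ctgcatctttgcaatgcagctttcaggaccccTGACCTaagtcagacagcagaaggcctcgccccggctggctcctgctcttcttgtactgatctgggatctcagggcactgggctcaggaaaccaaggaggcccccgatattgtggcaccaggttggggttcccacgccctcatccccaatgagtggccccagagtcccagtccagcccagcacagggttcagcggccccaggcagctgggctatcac

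The LXR-type element matched in 63 of 32851 promoter windows of 250 bases (0.192%), and Abca1 was the only one of the 7 genes with a match. The AGGTCA site, which overlaps in its letters with that element, was in 14.0% of all windows and in Plin2 and Cd36. The E-box was in 6.02% of windows and in Abca1. The GC box was in 32.7% of windows and in Abca1, Cd36 and Npc2. The TATA box was in 12.4% of windows and in Abca1 and Apoe. A match describes letters in these windows and says nothing of binding.

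Among the genes of uptake, Msr1 (ENSMUSG00000025044, GRCm38 chr8:39581685-39642673, minus strand) encodes the class A scavenger receptor, which binds acetylated and oxidised lipoproteins. Its levels in the TABS libraries were 29.4, 30.3, 27.7 and 27.8 FPKM in replicates 5, 6, 7 and 8, and 26.4, 26.8, 22.3 and 24.9 FPKM in the HA/Mg libraries. Every TABS library stood above every HA/Mg library, as did those of 8.05% of all tested genes. The means were 28.8 ± 1.26 and 25.1 ± 2.06 FPKM (SD, n = 4 each), and the log2 difference was 0.20 ± 0.06 (standard error), with a 95% interval of 0.05 to 0.34 and an adjusted p of 0.0586 from limma. Msr1 thus missed the threshold. It passed without HA/Mg replicate 6 (0.23, limma adjusted p = 0.0288), a fit in which 32.7% of all genes were called. With any other single library left out it stayed uncalled (limma adjusted p from 0.0816 to 0.133).

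Cd36 (ENSMUSG00000002944, chr5:17781690-17888801, minus strand) encodes the class B scavenger receptor that also carries long-chain fatty acids. Its TABS libraries held 0.355, 0.341, 0.443 and 0.430 FPKM, and its HA/Mg libraries 0.578, 0.354, 0.439 and 0.320 FPKM. The groups overlapped, at means of 0.392 ± 0.0520 and 0.423 ± 0.115 FPKM (SD, n = 4 each). These levels correspond to an estimated 23 to 44 fragments a library. Msr1 was 45.7 to 89.0-fold above Cd36 within each library.

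Lpl (ENSMUSG00000015568, chr8:68880491-68907448, plus strand) encodes lipoprotein lipase. It was at 39.5, 38.4, 46.6 and 41.6 FPKM with TABS and at 38.1, 41.7, 34.6 and 30.7 FPKM with HA/Mg. The groups overlapped through HA/Mg replicate 6, which was above 3 of the 4 TABS libraries. The means were 41.5 ± 3.63 and 36.3 ± 4.70 FPKM (SD, n = 4 each), with a log2 difference of 0.20 ± 0.09 (standard error), an interval of -0.02 to 0.41 and a limma adjusted p of 0.163. Without HA/Mg replicate 6 the difference was 0.26 at an adjusted p of 0.0474, without HA/Mg replicate 8 it was 0.12 (0.355) and without TABS replicate 7 it was 0.14 (0.339).

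Npc2 (ENSMUSG00000021242, chr12:84754562-84773152, minus strand) encodes the soluble lysosomal protein that hands cholesterol to NPC1. Its TABS libraries were at 91.5, 92.8, 98.7 and 95.6 FPKM and its HA/Mg libraries at 78.5, 87.2, 74.0 and 74.3 FPKM. The lowest TABS library was above the highest HA/Mg library. The means were 94.6 ± 3.18 and 78.5 ± 6.15 FPKM (SD, n = 4 each), and the log2 rise was 0.27 ± 0.06 (standard error), with an interval of 0.14 to 0.40 and a limma adjusted p of 0.0175. Over 22 alternative analyses the change lay between 0.22 and 0.33 and the adjusted p between 0.00281 and 0.136, and it passed the test in 16. The analyses in which the call was lost included those without HA/Mg replicate 5 (adjusted p = 0.0570), 7 (0.0600) or 8 (0.0513) and the one with trends in transcript length and GC content removed (0.28, adjusted p = 0.0581). Without HA/Mg replicate 6 it was 0.32 at an adjusted p of 0.00376.

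Plin2 (ENSMUSG00000028494, chr4:86648386-86670060, minus strand) encodes the perilipin that coats lipid droplets in macrophages. It was at 39.3, 39.8, 33.0 and 36.9 FPKM with TABS and at 36.0, 34.0, 35.8 and 37.8 FPKM with HA/Mg. TABS replicates 5 and 6 were the highest of all 8 libraries and TABS replicate 7 was the lowest. The means were 37.3 ± 3.09 and 35.9 ± 1.53 FPKM (SD, n = 4 each), with a log2 difference of 0.05 ± 0.06 (standard error), an interval of -0.09 to 0.19 and a limma adjusted p of 0.593. Without HA/Mg replicate 6 the difference was 0.025 (adjusted p = 0.798).

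Of the genes of efflux, Abcg1 (ENSMUSG00000024030, chr17:31057675-31117988, plus strand) encodes the transporter that moves cholesterol to HDL. Its TABS libraries were at 9.49, 8.94, 7.74 and 7.91 FPKM and its HA/Mg libraries at 7.51, 7.89, 8.24 and 7.61 FPKM. Only TABS replicates 5 and 6 were above the whole HA/Mg group, and replicates 7 and 8 lay within it. The means were 8.52 ± 0.833 and 7.81 ± 0.326 FPKM (SD, n = 4 each), and the log2 difference was 0.11 ± 0.07 (standard error), with an interval of -0.05 to 0.26 and a limma adjusted p of 0.284. Without HA/Mg replicate 6 it was 0.11 (adjusted p = 0.283).

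Abca1 (ENSMUSG00000015243, chr4:53030787-53159895, minus strand) encodes the transporter that loads cholesterol and phospholipid onto lipid-poor apolipoprotein A-I. It was at 0.711, 0.734, 0.271 and 0.365 FPKM with TABS and at 0.406, 0.378, 0.591 and 0.602 FPKM with HA/Mg, with means of 0.520 ± 0.237 and 0.494 ± 0.118 FPKM (SD, n = 4 each). TABS replicates 5 and 6 were the 2 highest libraries and TABS replicates 7 and 8 the 2 lowest, so the HA/Mg group lay between them. Its long transcript gave an estimated 63 to 158 fragments a library, the most of the 4 genes under 1 FPKM. Abcg1 was 12.2 to 28.6-fold above Abca1 in the same library.

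Apoe (ENSMUSG00000002985, chr7:19696109-19699188, minus strand) encodes apolipoprotein E, an acceptor of exported cholesterol. It was the lowest of the 10, at 0.261, 0.192, 0.173 and 0.222 FPKM with TABS and 0.138, 0.259, 0.266 and 0.156 FPKM with HA/Mg. The means were 0.212 ± 0.0383 and 0.205 ± 0.0674 FPKM (SD, n = 4 each) and rested on an estimated 4 to 8 fragments a library. The groups overlapped. Lpl, which like Apoe encodes a secreted protein, was 130 to 276-fold above Apoe.

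The receptors that drive these efflux genes were also unevenly expressed. Nr1h2 (ENSMUSG00000060601, chr7:44549616-44553951, minus strand) was at 9.71, 11.6, 9.95 and 10.7 FPKM with TABS and at 13.1, 7.00, 8.96 and 13.6 FPKM with HA/Mg. The HA/Mg libraries reached both above and below all TABS libraries, with a coefficient of variation of 30.1% against 8.31%. The means were 10.5 ± 0.874 and 10.7 ± 3.22 FPKM (SD, n = 4 each), the log2 difference was 0.02 ± 0.18 (standard error), with an interval of -0.38 to 0.42, and the limma adjusted p was 0.943. Its sign was negative in 7 of the 22 alternatives, among them the fit without HA/Mg replicate 6 (-0.15).

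Nr1h3 (ENSMUSG00000002108, chr2:91184061-91202834, minus strand) was at 0.557, 0.618, 0.575 and 0.482 FPKM with TABS and at 0.331, 0.564, 0.582 and 0.331 FPKM with HA/Mg. The groups overlapped, at means of 0.558 ± 0.0565 and 0.452 ± 0.140 FPKM (SD, n = 4 each), from an estimated 15 to 26 fragments a library. HA/Mg replicates 5 and 8, the 2 highest for Nr1h2, were the 2 lowest for Nr1h3. Nr1h2 was 12.4 to 41.2-fold above Nr1h3. Exons of Nr1h3 overlap those of Gm13783 on the same strand, which was at 0 to 0.278 FPKM, so reads of the pair may not be told apart. With no minimum level, 22906 genes were tested and 3.53% were called, and none of the 4 weakly detected genes was among them by limma (0 also at an unadjusted p under 0.05). Their adjusted p values were then 0.963 for Abca1, 0.489 for Nr1h3, 0.830 for Cd36 and 0.925 for Apoe.

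**Figure D1:**
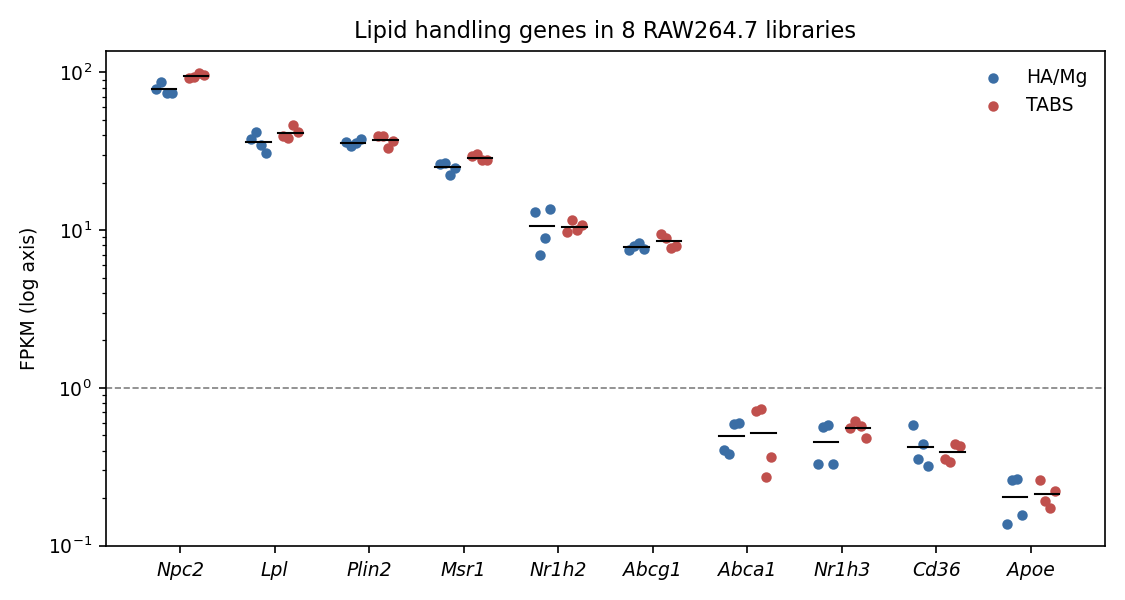
FPKM (log axis) of each of the 10 genes in the 4 TABS and 4 HA/Mg libraries, 1 point a library, with horizontal bars at the group means. The 2 groups of points separate without overlap for Npc2 and Msr1, and the points of Abca1, Nr1h3, Cd36 and Apoe all lie under 1 FPKM.

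**Figure D2:**
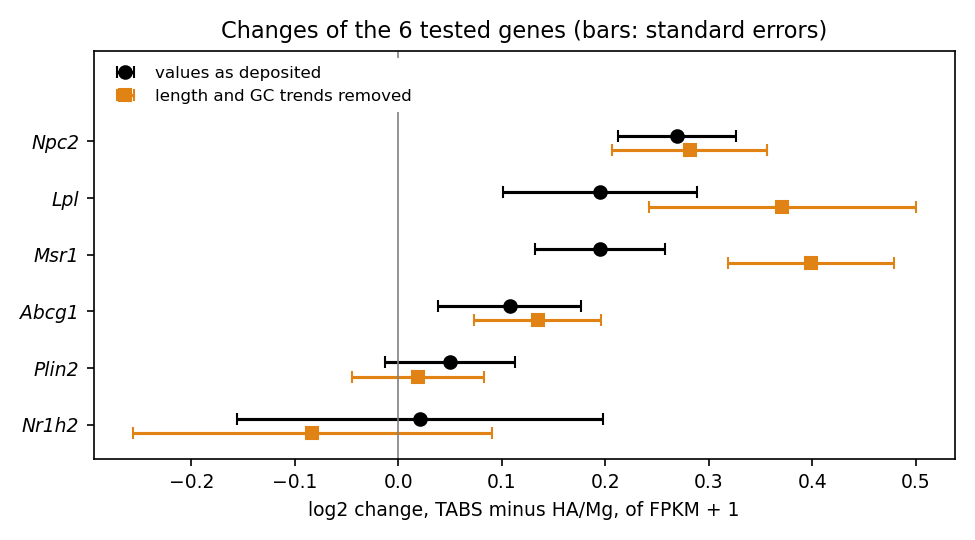
Log2 change, TABS minus HA/Mg, of the 6 tested genes with standard errors as bars, from the values as deposited and with the trends in transcript length and GC content removed. Npc2 was at 0.27 and 0.28, and Msr1 and Lpl were both at 0.20 as deposited and at 0.40 and 0.37 with the trends removed.

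FPKM divides by transcript length, so levels of different genes were set against each other. The source of the FPKM was not given, so the orders are approximate. Npc2 was the most abundant of the 10, above Lpl in 8 of 8 libraries (2.23-fold by the means). Lpl and Plin2 did not separate, Lpl being higher in 5 of 8. Plin2 was above Msr1 in 8 of 8 (1.36-fold), Msr1 above Nr1h2 in 8 of 8 (2.54-fold), and Nr1h2 above Abcg1 in 7 of 8 (1.30-fold). Abca1 and Nr1h3 were at like levels, Abca1 higher in 5 of 8, and Nr1h3 was above Cd36 in 7 of 8. By mean level Npc2 stood at percentile 94.0 of the tested genes, Lpl at percentile 86.4, Plin2 at percentile 85.5, Msr1 at percentile 80.6, Nr1h2 at percentile 59.2 and Abcg1 at percentile 51.8.

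The 4 ratios within a library, which do not move with the scaling of the library as a whole, were compared between scaffolds by exact two-sided permutation tests over all assignments of 4 against 4 libraries, where the smallest possible p is 0.0286. The log2 ratio of Abca1 to Abcg1 was -4.15 ± 0.583 with TABS and -4.01 ± 0.338 with HA/Mg (SD, n = 4 each), a difference of -0.14 (exact permutation p = 0.743). That of Nr1h3 to Nr1h2 differed by 0.32 (exact permutation p = 0.429), that of Cd36 to Msr1 by -0.28 (exact permutation p = 0.286) and that of Apoe to Lpl by -0.11 (exact permutation p = 0.771). Adjusted over the 4 ratios all p values were 0.771. A single ratio at the smallest possible p could not have fallen under 0.05 after that adjustment. With 1 library left out the difference for Nr1h3 to Nr1h2 ran from 0.056 without HA/Mg replicate 8 (0.076 without replicate 5) to 0.63 without HA/Mg replicate 6 (0.53 without replicate 7). That for Cd36 to Msr1 ran from -0.40 without HA/Mg replicate 8 to -0.14 without HA/Mg replicate 5, and was -0.39 without replicate 6. The differences for Abca1 to Abcg1 and for Apoe to Lpl, which changed sign with some libraries left out, were -0.26 and -0.042 without HA/Mg replicate 6. The balance of LXR forms had a wider spread in the HA/Mg libraries (SD 0.901 on the log2 scale) than in the TABS libraries (SD 0.169).

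Log2 changes across all genes ran with GC content in these libraries, where GC was that of the longest annotated transcript of a gene. Each gene was therefore set beside the tested genes within 2 percentage points of its own GC. Msr1 (38.4% GC) was beside 538 genes with a median change of -0.21, of which 2 were called higher and 183 lower, and stood at percentile 98.5 of their changes. Lpl (43.5% GC) was beside 1755 genes with a median of -0.18, of which 17 were called higher and 487 lower, and stood at percentile 97.4. Npc2 (51.3% GC) was beside 2204 genes with a median near 0, of which 108 were called higher and 121 lower, and stood at percentile 96.1. Plin2, Abcg1 and Nr1h2 stood at percentiles 59.8, 72.2 and 26.7 of their neighbours. With the trends removed, Msr1 was called (0.40 ± 0.08, standard error, adjusted p = 0.0319) and Npc2 was not, while Lpl was at 0.37 ± 0.13 (adjusted p = 0.109). How much of any single change goes with GC content was not tested.

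**Figure D3:**
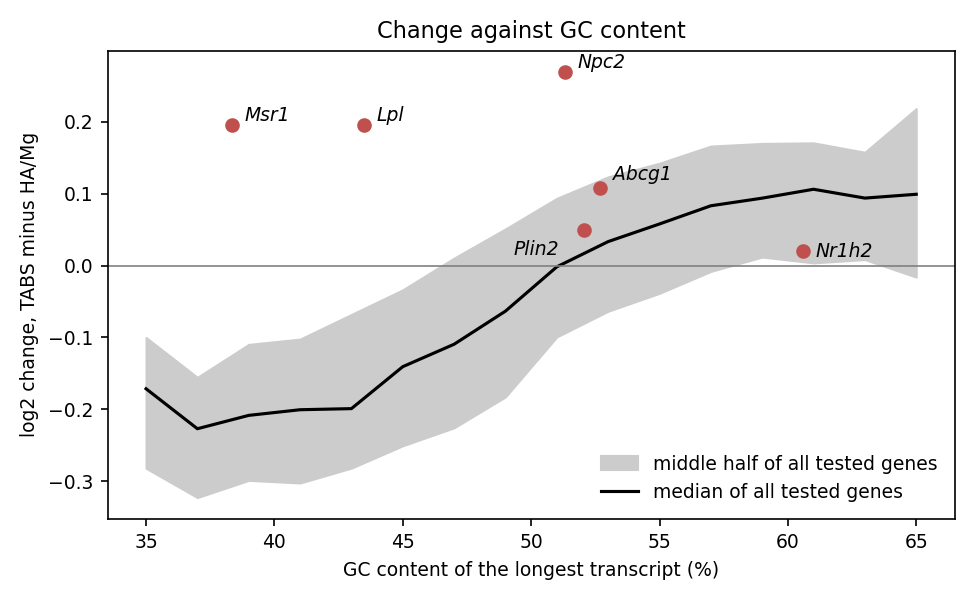
Log2 change, TABS minus HA/Mg, against transcript GC content (%) for the 6 tested lipid genes (points), with the median of all tested genes in GC bins as a line and the range from their lower to their upper quartile as a grey band. Msr1, Lpl and Npc2 lie above the band, Plin2, Abcg1 and Nr1h2 lie within it, and the line climbs from left to right.

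The other genes of the pathway were grouped in 10 lists of 118 genes, of which 84 were tested. With TABS 10 were called higher and 8 lower (21.4% called, beside 18.1% of all genes), and the median change was -0.01. The split was 16 and 4 with median-of-ratios scaling, 14 and 5 with quantile normalization, and 5 and 9 with libraries scaled to equal sums. For each list below, the shares over all genes are 5.07% called higher and 13.1% called lower. Among scavenger and lipoprotein receptors 2 of 8 tested genes rose and none fell (1 was lower at an unadjusted p under 0.05). Cd68, which encodes macrosialin, was at 539 ± 16.6 against 450 ± 33.0 FPKM (log2 rise 0.26, adjusted p = 0.0197). Cxcl16, which encodes a membrane chemokine that also binds oxidised lipoprotein, was at 7.38 ± 0.583 against 5.39 ± 0.335 FPKM (0.39, adjusted p = 0.0113). The HDL receptor gene Scarb1 was at 26.1 and 23.2 FPKM (adjusted p = 0.141).

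Of 9 tested genes for fatty acid uptake and activation, 4 rose and 1 fell, beside 5.07% and 13.1% of all genes. Fabp5, which encodes the epidermal type of fatty acid binding protein, was at 222, 237, 213 and 219 FPKM with TABS and at 168, 195, 188 and 178 FPKM with HA/Mg, and its groups did not overlap (log2 rise 0.28, adjusted p = 0.0147). Fabp3, of the heart type, was at 3.07 and 2.32 FPKM (0.29, adjusted p = 0.0221). Acsl3, an acyl-CoA synthetase found on nascent droplets, fell by 0.32 on the log2 scale, from a mean of 20.3 FPKM with HA/Mg to 16.1 FPKM with TABS (adjusted p = 0.0197). Named after their values were seen, Fabp4 (0.27, adjusted p = 0.0472) and the fatty acid transporter gene Slc27a1 (0.23, adjusted p = 0.0366) rose as well. The call of Fabp4 was lost when any 1 library was left out. Uncalled were Acsl1 (-0.27, limma adjusted p = 0.101, without overlap), Acsl4 (-0.20, 0.139), Acsl5 (-0.05, 0.370) and Slc27a4 (0.08, 0.360). These 4 were also named after their values were seen. Over all 10161 tested genes, the groups did not overlap for 1525 that were lower with TABS and for 818 that were higher.

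Among 4 tested partners of lipoprotein lipase, Lmf2, related to the lipase maturation factor Lmf1, rose from 7.11 to 8.35 FPKM (0.21, adjusted p = 0.0295). Of 12 tested genes of lysosomal lipid hydrolysis and egress, 2 rose and 2 fell. Stard3, which encodes a sterol-binding protein of late endosomes, was at 23.7, 23.4, 21.2 and 21.9 FPKM with TABS and at 18.1, 17.6, 18.5 and 17.6 FPKM with HA/Mg (log2 rise 0.31, adjusted p = 0.00869). The calls of Stard3, Cxcl16 and Fabp5 held when any 1 library was left out. Gramd1a, which encodes a sterol carrier between the plasma membrane and the endoplasmic reticulum, rose by 0.30 (adjusted p = 0.0193), and Osbp, which encodes an oxysterol-binding protein, fell by 0.30 (adjusted p = 0.0231). Lipa, which encodes lysosomal acid lipase, was at 43.1 ± 1.15 against 49.1 ± 2.37 FPKM (log2 change -0.18, adjusted p = 0.0262), and with the length and GC trends removed its change was 0.00 (adjusted p = 0.986). Npc1, the membrane partner of Npc2, was at 11.4 ± 1.20 and 10.8 ± 0.681 FPKM (adjusted p = 0.545), and at 0.23 with the trends removed (adjusted p = 0.0453).

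None of 14 tested genes of droplet storage rose (0 also at an unadjusted p under 0.05), and Lpin1 and Lpin2, which encode phosphatidate phosphatases of triglyceride synthesis, fell by 0.31 (adjusted p = 0.0428) and 0.23 (adjusted p = 0.0405). Soat1, which encodes the enzyme that esterifies cholesterol in macrophages, was at 33.5 and 34.8 FPKM (adjusted p = 0.472), and Plin3 was at 5.62 and 5.35 FPKM (adjusted p = 0.650). Of 6 tested genes of droplet breakdown, Spg20, which encodes spartin, fell by 0.29 (adjusted p = 0.0378). Of 4 tested efflux partners, Abca7, a transporter close in sequence to ABCA1, rose from 10.5 to 12.6 FPKM (0.25, adjusted p = 0.0238).

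Of 11 tested LXR partners and coregulators, Ncoa3, which encodes a nuclear receptor coactivator, fell by 0.19 (adjusted p = 0.0476). Of the RXR partner genes, Rxra was at 0.761 to 0.947 FPKM and was not tested, and Rxrb, named after its values were seen, was at 21.3 and 19.2 FPKM (adjusted p = 0.107). None of the 6 other LXR targets tested was called by limma (2 were at an unadjusted p under 0.05). Mylip, which encodes a ubiquitin ligase, was at 1.03 with TABS and 1.62 FPKM with HA/Mg (log2 change -0.36, adjusted p = 0.0686), and Srebf1, which encodes a regulator of fatty acid synthesis, was at 9.78 and 8.62 FPKM without overlap (adjusted p = 0.0749). Of 10 tested PPAR and fatty acid oxidation genes, Acadm, which encodes medium-chain acyl-CoA dehydrogenase, fell by 0.25 (adjusted p = 0.0411). Ppard was at 2.77 and 2.92 FPKM (adjusted p = 0.748), and Pparg was listed at 0 in 6 libraries and at no more than 0.0157 FPKM in any. With the length and GC trends removed, 263 of all genes were called higher and 384 lower, against 515 and 1327 as deposited. In that fit 6 of the 10 higher pathway genes (Cd68, Cxcl16, Fabp4, Fabp5, Stard3 and Abca7) and 1 of the 8 lower ones (Osbp) passed the test. Among those that did not, Gramd1a was then at 0.25, Fabp3 at 0.21, Slc27a1 at 0.16 and Lmf2 at 0.14, while Lpin1 was at -0.24, Spg20 at -0.22, Acadm at -0.20, Acsl3 and Lpin2 at -0.14 and Ncoa3 at -0.10.

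Of the 18 calls among the pathway genes, all but those of Stard3, Cxcl16 and Fabp5 were lost when some single library was left out. The omission of 1 library ended the call for 7 of the 8 libraries in Lpin2, Spg20, Ncoa3 and Acadm, for 6 in Lpin1 and Lmf2, and for 5 in Slc27a1, Fabp3, Osbp and Abca7. It did so for 4 libraries in Acsl3 and Lipa, for 3 in Cd68 and for 1 in Gramd1a. Of the 20 tested genes of droplet storage and breakdown 3 were called lower, or 15%, near the 13.1% of all genes, and 0 were called higher, beside 5.07% of all genes.

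**Figure D4:**
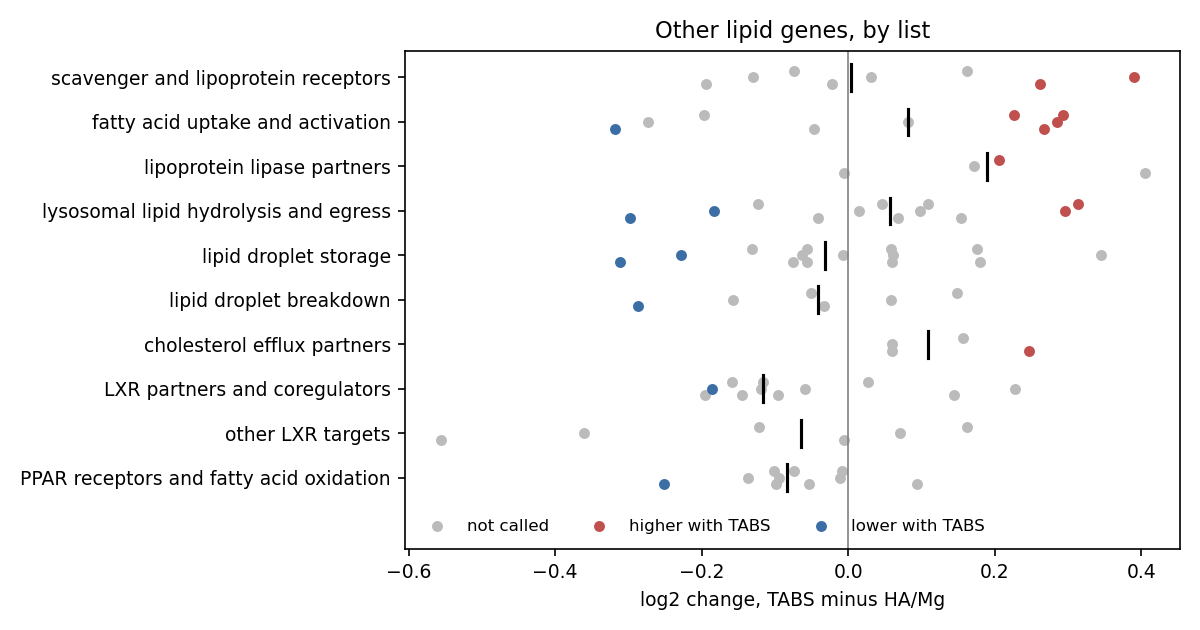
Log2 change, TABS minus HA/Mg, of the 84 tested genes of the 10 pathway lists, 1 point a gene, coloured by whether the gene was called higher, lower or not at all, with a black bar at the median of each list. Of the called genes of fatty acid uptake and activation 4 lie to the right and 1 to the left. The 3 called genes of droplet storage and breakdown, a share near that of all genes, lie to the left.

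As a check of the label, all 10 macrophage markers were above the minimum. Of them 4 (Cd68, Csf1r, Cd14 and Fcgr3) were called higher with TABS and none lower, beside 5.07% and 13.1% of all genes. Ptprc (-0.12) and Itgam (-0.08) had negative changes and were not called. The summed level of all 10 was 2564 to 2843 FPKM in the TABS libraries and 2118 to 2509 FPKM in the HA/Mg libraries. Its largest part was Lyz2, at means of 1418 and 1249 FPKM and not called (limma adjusted p = 0.200). Of 8 osteoclast markers 2 were tested: Mmp9 was called higher and Dcstamp was not called (limma adjusted p = 0.157). The other 6 were under 1 FPKM in every library. Among them Acp5 was at means of 0.458 with TABS and 0.526 FPKM with HA/Mg, and Ctsk at 0.322 and 0.357 FPKM. All markers of osteoblasts, fibroblasts, adipocytes, hepatocytes, endothelial cells, T cells and B cells were under 1 FPKM in every library. The adipocyte list, which could touch Plin2, Lpl and Cd36, summed to 0.350 to 0.572 FPKM with TABS and 0.0948 to 0.306 FPKM with HA/Mg. Most of that sum was 1 weak gene, Retn, at 0.340 to 0.563 FPKM with TABS and 0.0708 to 0.306 FPKM with HA/Mg. Adipoq, Lep and Adrb3 were at 0, and Plin1 and Cidec at no more than 0.0239 FPKM in any library. In RNA of whole cultures, fewer cells of a type and less RNA per cell cannot be told apart. The part of the macrophage markers in the rise of Npc2 was not tested.

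**Figure D5:**
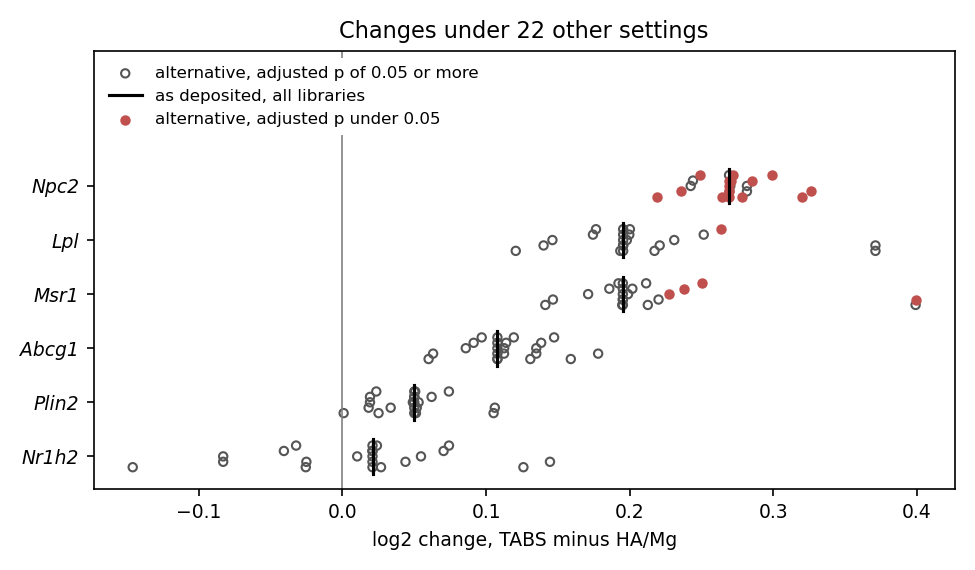
Log2 change, TABS minus HA/Mg, of the 6 tested genes in the main analysis and in 22 alternatives, coloured by whether the gene passed the test. Npc2, Msr1, Lpl, Abcg1 and Plin2 stay right of 0 in all 22, Nr1h2 lies on both sides, and filled points, which passed the test, are seen for Npc2 (16), Msr1 (4) and Lpl (1).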

How the data were processed

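The authors deposited 1 table of FPKM values for 55335 Ensembl identifiers in 8 libraries, and 55154 matched GENCODE M21 (GRCm38), which gave symbols and positions. Per the labels' protocols, total RNA from TRIzol was made into NEBNext Ultra libraries and sequenced as paired ends. The tools fastp, STAR and DESeq2 and the build GRCm38 are named, per the submitters' processing notes, with no versions. The source of the FPKM and any use of strand were not given in the sources used here. FPKM divides by the length and the total of a library, so a rise in abundant transcripts lowers all others.

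The 10161 genes that reached 1 FPKM in 4 or more libraries were tested on log2(FPKM + 1) with limma 3.58.1 in R 4.3.3 (empirical Bayes with a mean-variance trend, two-sided, Benjamini-Hochberg over all tested genes), called at an adjusted p under 0.05. A fold change on this scale understates the change of low genes. The members and lists were chosen with earlier results of these data known. Named were all 10 genes, up to 3 called genes a list, taken by size of change (or, with no call, the 2 of smallest p), and 11 set genes, of which 1 is not reported here. Depth, estimated from the steps of low values, was 19700000 to 23600000 fragments a library. Only 35.0 to 38.6% of low values were whole within 0.05 of a fragment, so no reads were recovered and fragment numbers are rough. The fragment numbers of a gene also rest on the length of its longest annotated transcript. In simulated data for this comparison (10161 genes, 50 changed at each size), 38% of log2 changes of 0.3 were recovered. The shares were 72% at 0.5, 94% at 1 and 100% at 2, with 3 false among 155 calls. The simulation drew noise independently for each gene and changed a far smaller share of genes than the 18.1% called here. Its rates may therefore not carry over to these libraries.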

Additional observations from a re-analysis of the deposited data

How the results depend on the processing

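Abcg1 and Plin2 kept their sign and stayed uncalled in all 22 alternatives, and no tested gene of the 10 was called lower in any. Nr1h2 turned to -0.026 with libraries scaled to equal sums, -0.083 with length and GC trends removed (with and without the replicate block) and -0.032 with array weights, and ran from -0.15 to 0.14 with 1 library left out. Of the 6 tested genes 1 was called higher as deposited, 2 with median-of-ratios scaling, 2 with array weights and 0 to 3 with 1 library left out. With the trends removed 1 was called, Msr1 in place of Npc2. Npc2 was at an adjusted p of 0.0745 with the replicate block and 0.136 with the block and the trends removed. Of the pathway genes 10 were higher and 8 lower as deposited. These counts were 4 and 0 with no minimum level, 16 and 4 with median-of-ratios scaling, 16 and 13 with array weights, 8 and 1 with the trends removed, 14 and 5 with quantile normalization, and 5 and 9 with equal sums. With 1 library left out they ran from 3 to 12 higher and from 0 to 12 lower, and the most in each direction were called without HA/Mg replicate 6. The log2 ratio of Abca1 to Abcg1 turned from -0.14 to 0.020 with the trends removed, and ran from -0.32 to 0.087 with 1 library left out, where only the value without TABS replicate 7 was positive. That of Apoe to Lpl ran from -0.30 to 0.061, and was positive with either replicate 7 left out, at 0.043 for the TABS library and 0.061 for the HA/Mg library. That of Nr1h3 to Nr1h2 was 0.085 with a pseudocount of 1, and ran from 0.056 to 0.63 with 1 library left out. The log2 difference of Nr1h3 was 0.11 with a pseudocount of 1 and 0.28 with 0.1. Over all genes 1842 were called, 515 higher and 1327 lower. With the trends removed 647 were called, 263 higher and 384 lower. The total was 808 with no minimum level, 3532 with array weights and 429 to 3320 with 1 library left out. Of the fits with 1 library left out, the least were called without HA/Mg replicate 5 and the most without HA/Mg replicate 6. The numbers 5 to 8 are shared by both groups, but deviations of same-numbered libraries correlated at 0.01, -0.27, -0.16 and 0.13. The numbers were therefore not taken to pair the libraries. Only TABS replicate 8 correlated best with its own number. The highest correlation was 0.38, between TABS replicate 7 and HA/Mg replicate 6. With the replicate block in limma 0 of 10161 genes passed (smallest adjusted p = 0.0589, and 2987 at an unadjusted p under 0.05), and so 0 of the 6 lipid genes and 0 pathway genes did, with or without the trends. Depth limits Apoe most, at an estimated 4 to 8 fragments a library. Leaving out 1 library leaves 3 in its group. The cause of each change was not tested.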

Other observations

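The TABS libraries differed among themselves in several lipid genes. Replicates 5 and 6 were the 2 highest TABS libraries for Abca1, Abcg1, Plin2 and Msr1 and the 2 lowest for Lpl, Npc2 and Cd36. Apoe, Nr1h2 and Nr1h3 did not split in this way. The split was seen in these values, and its share over all genes was not counted. Hilpda, which encodes a droplet protein that inhibits triglyceride lipase and was named after its values were seen, was at 51.4 and 51.2 FPKM in TABS replicates 5 and 6, at 29.9 and 36.1 FPKM in replicates 7 and 8, and at 29.6 to 34.4 FPKM in the HA/Mg libraries (limma adjusted p = 0.147 between scaffolds). The second principal component of all tested genes (18.3% of the variance) had scores of 11.6 and 11.2 for TABS replicates 5 and 6, against -8.38 and -1.70 for 7 and 8. Replicate numbers have no order, and no label gives these pairs a meaning.

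Scd2, an LXR and SREBP target that encodes a stearoyl-CoA desaturase and was also named after its values were seen, was at 30.2, 27.9, 104 and 31.8 FPKM with TABS and at 49.8, 43.2, 46.9 and 133 FPKM with HA/Mg, with 1 high library in each group (limma adjusted p = 0.413). Its relative Scd1 was at 36.1 to 37.7 FPKM in all 8 libraries. In the HA/Mg group, replicates 5 and 8 were the 2 highest for Nr1h2 (13.1 and 13.6 FPKM) and the 2 lowest for Nr1h3 (0.331 and 0.331 FPKM) and Apoe (0.138 and 0.156 FPKM), with Nr1h3 and Apoe near the limit of the depth.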
